A study of Mus musculus with 6 samples.

Results

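The genes described here encode the subunits of the NADPH oxidases, which make superoxide, and the enzymes and regulators that remove superoxide and peroxides. They were taken from a list of 40 genes, and every probe set that the 2016 platform annotation assigned to exactly 1 of them was used. That gave 79 of the 45101 probe sets of the array, from 37 genes. Prdx1, Prdx5 and Prdx6 were not analysed here. Testing was limited to probe sets brighter than log2 3.285 on average, the median level of all probe sets other than controls. Of the 79 probe sets 69 passed, from 36 genes, and Nox4 was the gene left out by this filter. Each gene was represented by its probe set of highest mean.

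RNA abundance was measured on whole-genome Affymetrix arrays in heart tissue of C57BL/6 mice. The series' design text calls the animals matched for age and sex, but Xist, the female-specific RNA of the inactive X chromosome, was high on labelled transgenic arrays 1 and 3 and non-transgenic array 2, and Eif2s3y, a gene of the Y chromosome, was high on the other 3, so the sexes were not balanced between the groups. Of the 6 arrays 3 came from transgenic mice overexpressing hAT1R, the human type 1 receptor for angiotensin II, and 3 from normal mice of the same strain. The labels give neither the ages nor the promoter that drives the transgene, nor whether different arrays came from different mice. Each group held arrays of both sexes, so the arrays of a group did not all come from the same mouse. Arrays of the same sex in a group may still be repeats of a mouse. The p-values therefore measure only the spread between these arrays, which may be partly technical. In the instrument's records the chip lot field read "control" for each array labelled transgenic and "transgene" for each of the other 3. Groups follow the sample labels, "labelled transgenic" is written for this reason, and the opposite reading would turn the sign of every difference below.

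NADPH oxidase 2 is a membrane complex of the catalytic subunit Cybb and its partner Cyba, which the cytosolic subunits Ncf1 and Ncf4 and the small GTPase Rac1 join on activation. Nox4 is a related catalytic subunit that needs no cytosolic subunits. Signalling through the angiotensin receptor is a known activator of these oxidases. Superoxide dismutases turn superoxide into hydrogen peroxide, and catalase, the glutathione peroxidases and the thioredoxin-dependent peroxiredoxins remove the peroxide. The transcription factor Nfe2l2 (Nrf2), held down by Keap1, switches on many of these genes under oxidative or electrophilic stress.

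No member passed the test over all genes. In limma's moderated test 62 of 11016 genes had an adjusted p under 0.05, or 0.563% of those tested, and 0 of the 36 members were among them. The members nearest to the threshold were the quinone reductase gene Nqo1, 1.69-fold higher in the labelled transgenic hearts, and the peroxidase genes Gpx3 and Gpx8, 1.61-fold and 1.34-fold higher. At an unadjusted p under 0.05 there were 11 members. Of these 6 were higher (Nqo1, Gpx3, Gpx8, Sod3, Gpx4 and Txn1), or 16.7% of members beside 10.6% of all genes. The 5 others were lower (Gsta4, Sod2, Prdx3, Txn2 and Gstp1), or 13.9% beside 7.88%. All 3 labelled transgenic arrays lay above the other 3 in 5 members, or 13.9% beside 14.3% of all genes, and below them in 4 members, or 11.1% beside 10.9%. By this second rule the members did not stand apart from the background. The 11 members at an unadjusted p under 0.05 became 6 without labelled transgenic array 2, 5 without array 3 of the same group and 5 without array 3 of the non-transgenic group. Out of 36 members they were 5 higher and 1 lower without the first of these arrays, beside 9.69% and 5.27% of all genes. Without the second they were 4 and 1 of 36, beside 7.18% and 5.52%. Without the third they were 3 and 2 of 36, beside 7.55% and 6.92%. Median centring gave 6 and 3 of 36, beside 10.4% and 7.01%. With the fluidics station in the fit the balance turned, to 4 higher and 6 lower, beside 7.08% and 10.5% of all genes. Nqo1, Gpx3, Gpx8 and Prdx3 had such a p under each of the 18 alternatives tried.

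**Figure D1:**
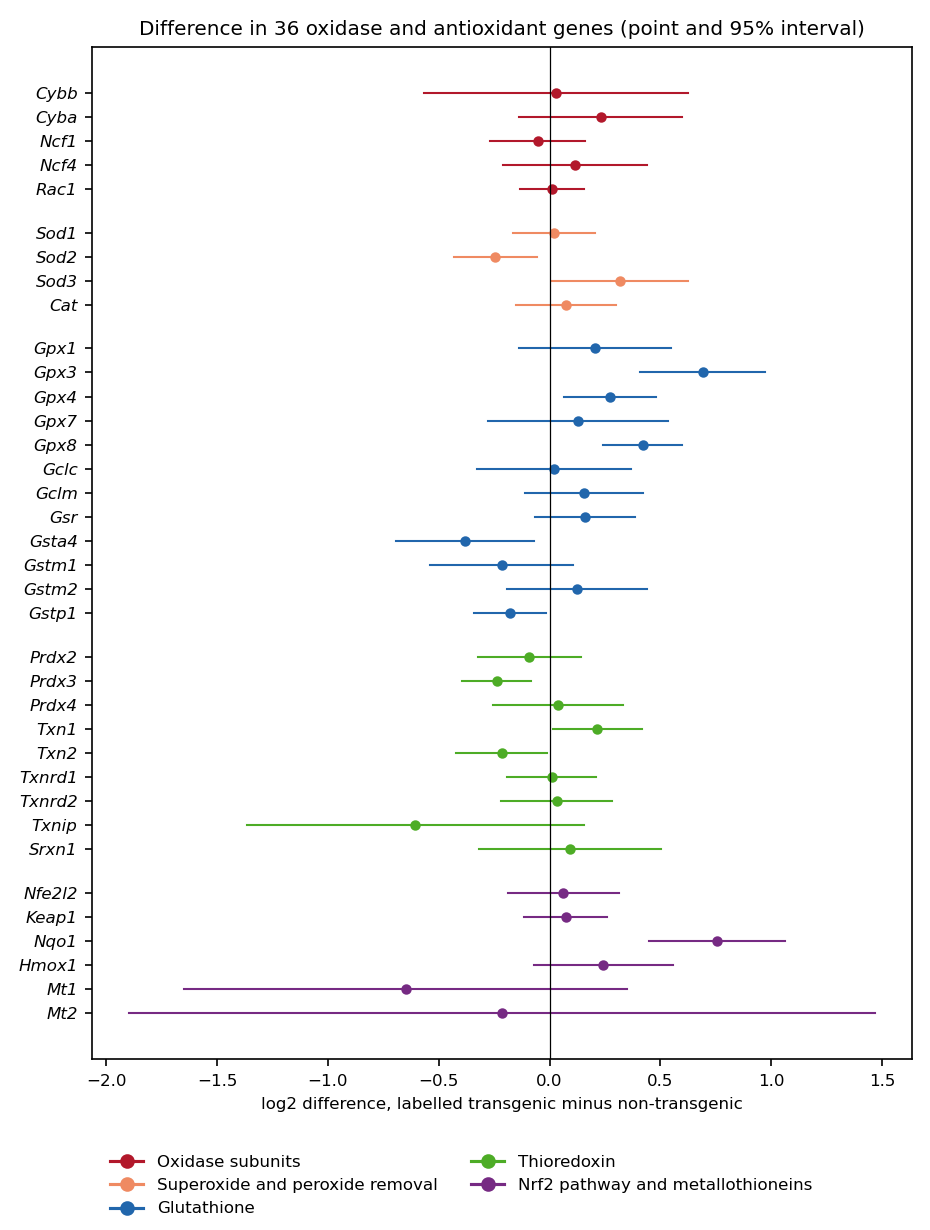
Difference in log2 expression, labelled transgenic minus non-transgenic, of the 36 genes tested, grouped by arm, with the 95% interval of limma's fit of 3 against 3 arrays. Nqo1 (0.76), Gpx3 (0.69) and Gpx8 (0.42) lie farthest above 0 relative to their intervals, and the intervals of Mt1, Mt2 and Txnip are the widest.

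The median difference over the 36 members was 0.05 on the log2 scale, beside 0.01 over all genes tested. It was 0.03 over the 5 oxidase subunits tested, 0.05 over the 4 dismutase and catalase genes, 0.14 over the 12 glutathione genes, 0.01 over the 9 thioredoxin genes and 0.07 over the 6 genes of the Nrf2 pathway and the metallothioneins. Higher and lower members were mixed within each arm: 4 and 1 among oxidase subunits, 3 and 1 among dismutases and catalase, 9 and 3 in the glutathione arm, 5 and 4 in the thioredoxin arm, and 4 and 2 in the last. Log2 differences of at least 0.5 in size were found in 4 members (Nqo1, Gpx3, Mt1 and Txnip), or 11.1%, beside 7.19% of all genes.

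**Figure D2:**
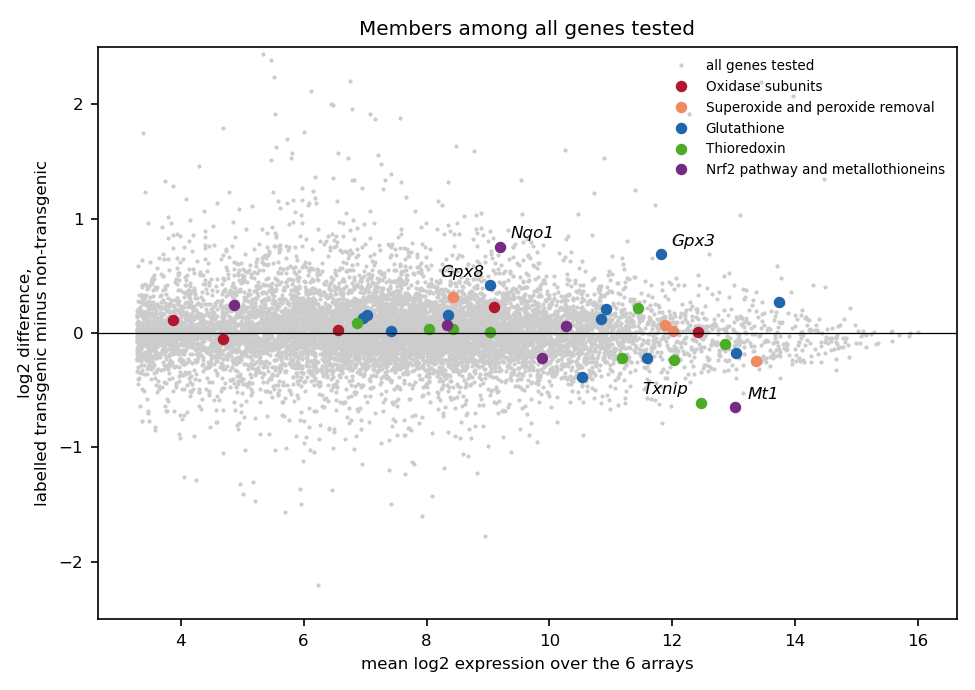
Log2 difference, labelled transgenic minus non-transgenic, against mean log2 expression over the 6 arrays, for all genes tested (grey) and for the members (coloured by arm). The members lie within the cloud of all genes, and 6 genes beyond 2.5 in size are outside the plotted range.

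Features of the arrays moved with the groups. Arrays were washed on 2 fluidics stations, station 2 for the labelled transgenic group and for array 1 of the non-transgenic group, and station 3 for the remaining 2. A fit with the station as a term therefore gives the labelled transgenic mean minus non-transgenic array 1 alone, 3 arrays against 1 that is assumed to vary like the others, and each value given with the station in the fit rests on that array. The log2 difference between the 3' and 5' probe sets of the actin control, a gauge of RNA integrity, averaged 0.88 ± 0.07 (SD, n = 3) for labelled transgenic hearts against 1.01 ± 0.04, without overlap. Cardiomyocyte markers, with all 9 above the filter, had a summed linear signal of 354000 to 359000 on labelled transgenic arrays and of 361000 to 368000 on the others. Their median difference was -0.04, and 1 was lower at an unadjusted p under 0.05, or 11.1% beside 7.88% of all genes. The sum of 8 smooth muscle and pericyte markers ran from 18400 to 19700 against 20000 to 23000, with all 8 above the filter. Of these 7 were lower, 3 of them at that p, or 37.5% beside 7.88%. The sum of 19 macrophage and monocyte markers ran from 8950 to 10700 against 6630 to 7310, and only Itgam lay below the filter. The sum of 10 fibroblast markers ran from 17500 to 22300 against 13200 to 15100, with all 10 above the filter. Of these 7 were higher at an unadjusted p under 0.05, or 70% beside 10.6% of all genes, and the median difference was 0.67. Of 4 atrial myocyte markers Nppa, which stressed ventricles also express, rose by 2.19 ± 0.17 (adjusted p = 0.015), Myl4 was at -0.12 ± 0.11, and Sln and Myl7 lay below the filter. In heart tissue, more cells of a type and more RNA per cell cannot be told apart. The part of these features in the members' values was not tested, except where a value with the station or Xist in the fit is given.

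With every array in the fit, the oxidase subunits showed no difference beyond the spread between arrays. Cybb, the catalytic subunit found mainly in phagocytes, was at log2 6.17, 6.40 and 7.13 on the labelled transgenic arrays and at 6.67, 6.42 and 6.53 on the non-transgenic ones. Its highest value was on labelled transgenic array 3 and its lowest on array 1 of the same group, so the groups overlapped. The difference was 0.03 ± 0.25 (SE), with a 95% interval from -0.57 to 0.62 and adjusted p = 0.966, and it was -0.26 without labelled transgenic array 3. Its other probe sets were at 0.08 and 0.17.

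Cyba, the membrane partner of both Cybb and Nox4, differed by 0.23 ± 0.15 (interval -0.14 to 0.60, adjusted p = 0.47). Over the alternatives this ran from -0.05 to 0.37, and without non-transgenic array 1 Cyba had an unadjusted p under 0.05. Ncf1 and Ncf4, the cytosolic organiser and its companion, differed by -0.05 ± 0.09 and 0.12 ± 0.13, and both probe sets were dim, with group means between 3.82 and 4.71. Rac1, the GTPase, differed by 0.01 ± 0.06 with an interval from -0.13 to 0.16, the narrowest of the subunits. Against non-transgenic array 1 alone, which is what the station leaves, all 5 differences turned sign, to between -0.11 and 0.04.

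Nox4 was not tested, since both of its probe sets lay below the brightness filter. The brighter was at 3.03, 3.04 and 5.05 on labelled transgenic arrays and at 3.01, 2.79 and 2.69 on the others. Labelled transgenic array 3 alone was well above the rest, and the other arrays of its group were above the non-transgenic ones by only 0.02 at the closest. The group means were 3.71 ± 1.16 and 2.83 ± 0.16. The other probe set was at 2.73, 2.49 and 2.68 against 2.64, 2.69 and 2.67 and did not share that high value. In a fit without the filter its difference was 0.88 ± 0.60, with adjusted p = 0.7.

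The phagocyte subunits stood beside macrophage markers that were mostly higher. Of 18 such markers tested 17 were higher and 13 of them had an unadjusted p under 0.05, or 72.2% beside 10.6% of all genes. The median difference was 0.49, though none passed over all genes. Tyrobp, a signalling adaptor of myeloid cells, was at 0.74 ± 0.12 and Adgre1, the F4/80 antigen, at 0.68 ± 0.10. Cybb, Ncf1 and Ncf4, which the same cells express, were between -0.05 and 0.12, with Ncf1 and Ncf4 dim. The other probe sets of Cybb and Ncf1 ran from -0.01 to 0.17, and Cyba was at 0.23. The difference between subunits and markers was not tested. Neutrophil markers were near the floor of the array, with 6 of 8 below the filter and a sum of 45.4 to 103 against 45.9 to 82.9.

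**Figure D3:**
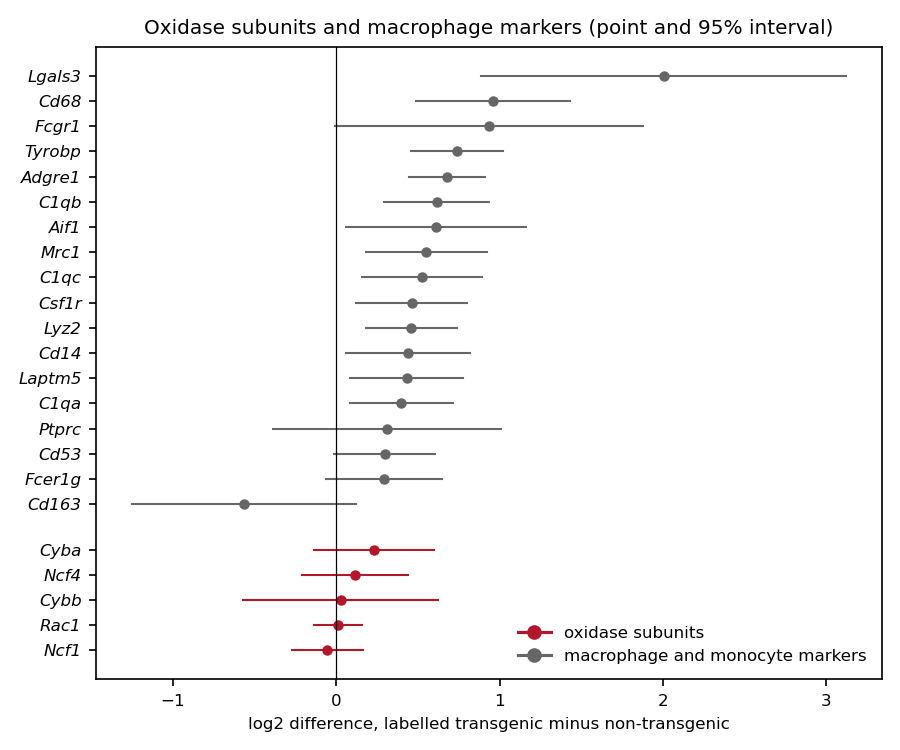
Log2 difference, labelled transgenic minus non-transgenic, with its 95% interval, for the 5 oxidase subunits tested (red) and 18 macrophage and monocyte markers (grey), each sorted by size. All 5 oxidase intervals include 0, while 13 of the macrophage intervals lie above it.

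Other sources of reactive oxygen were covered by a list of 16 genes, of which 7 were tested. None passed over all genes, and 3 had an unadjusted p under 0.05. That was 28.6% higher and 14.3% lower, beside 10.6% and 7.88% of all genes. Maob, a monoamine oxidase of the outer mitochondrial membrane that releases peroxide, was lower at 9.31 ± 0.40 against 10.1 ± 0.13, a difference of -0.79 ± 0.20 with adjusted p = 0.131. Its relative Maoa was dim and higher, at 3.84 ± 0.24 against 3.50 ± 0.08, with adjusted p = 0.247. Cybc1, a chaperone needed for the Cybb and Cyba pair, differed by 0.25 ± 0.07 with adjusted p = 0.152.

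Among the dismutases Sod2 was lower and Sod3 higher at an unadjusted p under 0.05, and neither passed over all genes. Each was 25% of the 4 dismutase and catalase genes, beside 7.88% of all genes lower and 10.6% higher. Sod2, the manganese enzyme of the mitochondrial matrix, was at 13.34, 13.21 and 13.20 on labelled transgenic arrays and at 13.55, 13.41 and 13.52 on the others. All labelled transgenic values lay below the non-transgenic ones. The difference was -0.24 ± 0.08, a 1.18-fold lower level (interval -0.43 to -0.06, adjusted p = 0.18). All 4 Sod2 probe sets were lower, by -0.24 to -0.42, and 3 of them without overlap. With the station in the fit Sod2 was at -0.30 (adjusted p = 0.236).

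Sod3, the extracellular dismutase bound to matrix, was higher at 8.58 ± 0.23 against 8.26 ± 0.07, a difference of 0.32 ± 0.13 with adjusted p = 0.255. Labelled transgenic array 1 lay within the non-transgenic range, and without it the difference was 0.45 (adjusted p = 0.0946), the largest of the alternatives. The smallest was 0.24. With quantile normalization, with the replicate number in the fit or with any other single array left out, Sod3 was no longer at an unadjusted p under 0.05. Its other probe set, dimmer, was at 0.51 without overlap. Sod1, the cytosolic copper and zinc enzyme, was at 12.02 ± 0.05 against 12.00 ± 0.10, with an interval of the difference from -0.17 to 0.21. Its 4 probe sets ranged from -0.20 to 0.02 and did not share a sign.

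Catalase, which removes peroxide in peroxisomes, was at 11.95, 11.98 and 11.82 on labelled transgenic arrays and 11.74, 12.00 and 11.79 on the others. The groups overlapped, and the difference of Cat was 0.07 ± 0.09, with an interval from -0.15 to 0.30 (adjusted p = 0.721).

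In the glutathione arm 3 peroxidases were higher and 2 transferases lower at an unadjusted p under 0.05. These were 25% and 16.7% of the arm, beside 10.6% of all genes higher and 7.88% lower. Gpx3, the peroxidase secreted into plasma and the extracellular space, was at 12.33, 12.03 and 12.15 on labelled transgenic arrays and at 11.35, 11.65 and 11.42 on the others. The groups were separated by 0.37 between the lowest labelled transgenic and the highest non-transgenic array. The difference was 0.69 ± 0.12 (interval 0.41 to 0.97, adjusted p = 0.0593). It was 0.81 with the station in the fit and 0.62 with Xist in it, and the alternatives gave adjusted p-values between 0.0427 and 0.196.

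Gpx8, a membrane peroxidase of the endoplasmic reticulum, was at 9.30, 9.22 and 9.23 against 8.85, 8.90 and 8.74. All of its labelled transgenic values were above the others, by at least 0.31, with an SD of 0.05 and 0.08 within the groups. The difference was 0.42 ± 0.07 (adjusted p = 0.0638, in a range from 0.0485 to 0.197). Gpx4, which reduces lipid peroxides in membranes, was at 13.75, 13.86 and 14.00 against 13.66, 13.56 and 13.58. Its groups did not overlap, although only 0.09 lay between them, and the difference was 0.27 ± 0.09 (adjusted p = 0.183). Its other probe set was at 0.13.

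Gpx1, the cytosolic peroxidase, and Gpx7, the second form of the endoplasmic reticulum, differed by 0.21 ± 0.14 and 0.13 ± 0.17, and both overlapped between groups. All 5 glutathione peroxidases tested were thus above 0, as were 5768 of all 11016 genes, although Gpx7 was at -0.01 without labelled transgenic array 3.

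The enzymes that make and recycle glutathione showed small differences. Gclc and Gclm, the catalytic and modifier subunits of the limiting ligase, were at 0.02 ± 0.14 and 0.16 ± 0.11, and Gclc changed sign with quantile normalization. Gsr, glutathione reductase, was at 0.16 ± 0.09 with an interval from -0.07 to 0.38. None of the 3 passed, at adjusted p from 0.414 to 0.958.

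Gsta4, the transferase that clears the lipid peroxidation product hydroxynonenal, was lower at 10.34 ± 0.19 against 10.72 ± 0.16, a difference of -0.38 ± 0.13 (adjusted p = 0.201). Labelled transgenic array 1 and non-transgenic array 2 overlapped. Gstp1, the pi-class transferase, was lower without overlap, at 12.95 ± 0.03 against 13.12 ± 0.06, a difference of -0.18 ± 0.07 (adjusted p = 0.239). Gstm1 and Gstm2, mu-class transferases, were at -0.22 ± 0.13 and 0.13 ± 0.13. The Gstm1 probe set is of a type (suffix _x_at) whose probes can also match related transcripts, so the mu-class values may be shared.

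A list of 31 other glutathione genes gave 20 tested, of which 10 were higher and 10 lower, with a median of -0.02. At an unadjusted p under 0.05 there were 1 higher and 5 lower, or 5% and 25%, beside 10.6% and 7.88% of all genes. None passed over all genes. Gstk1, a transferase of mitochondria and peroxisomes, was at 10.66 ± 0.27 against 11.32 ± 0.09, a difference of -0.66 ± 0.14 (adjusted p = 0.0987). Glrx, the cytosolic glutaredoxin, was at -0.38 ± 0.14 (adjusted p = 0.221).

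**Figure D4:**
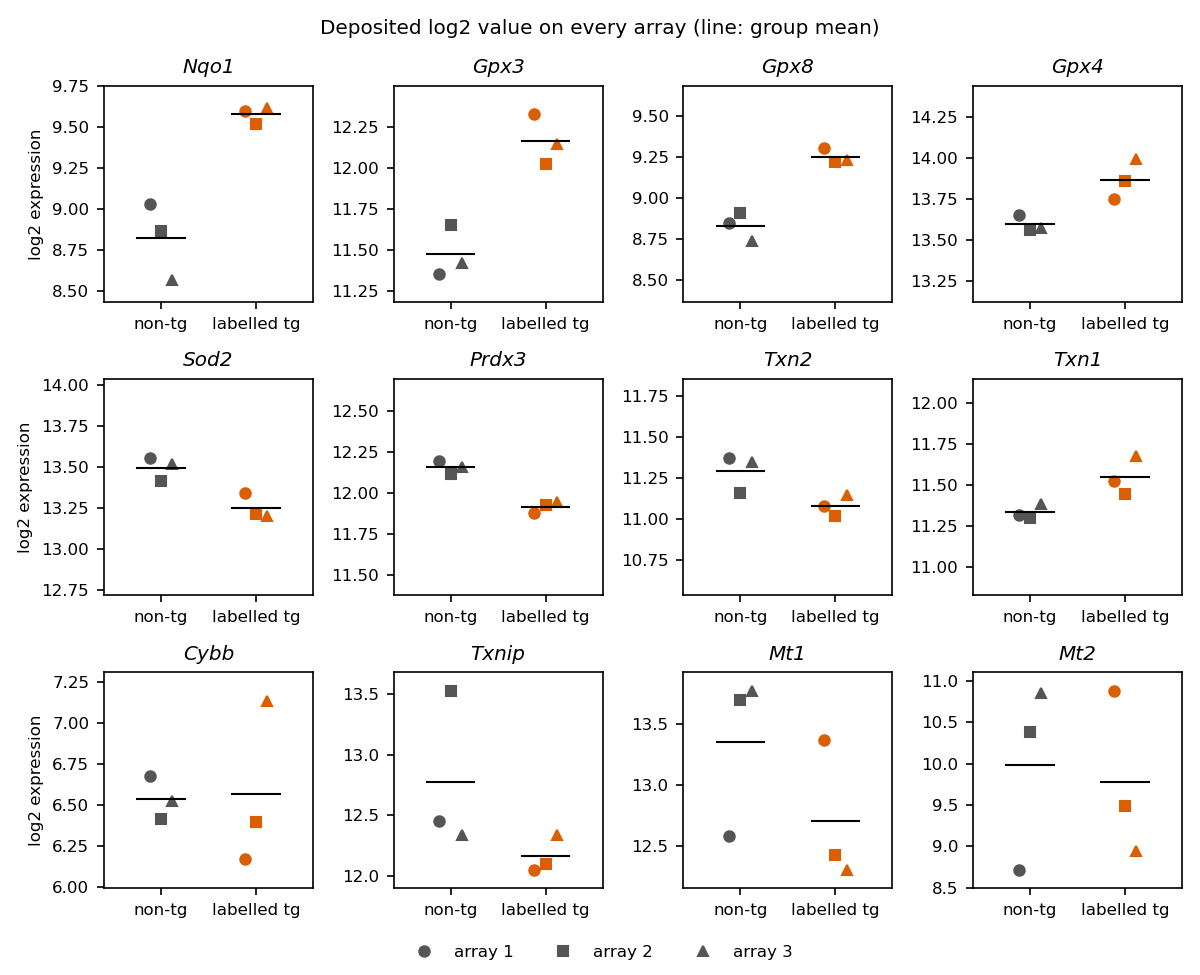
Deposited log2 value of 12 members on every array, by group, with the marker shape giving the array number and a line at the group mean. The groups do not overlap in Nqo1, Gpx3, Gpx8, Gpx4, Sod2, Prdx3, Txn2 and Txn1 and overlap in Cybb, Txnip, Mt1 and Mt2, and the scale differs between panels.

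In the thioredoxin arm Txn2 and Prdx3 were lower and Txn1 higher at an unadjusted p under 0.05, and none passed over all genes. These were 22.2% and 11.1% of the arm, beside 7.88% of all genes lower and 10.6% higher. Txn2, the mitochondrial form, was at 11.08, 11.02 and 11.15 against 11.37, 11.16 and 11.35. The groups did not overlap, though labelled transgenic array 3 and non-transgenic array 2 lay only 0.02 apart. The difference was -0.22 ± 0.08 (adjusted p = 0.252), and all 3 of its probe sets were lower without overlap, by -0.20 to -0.28. Txn1, the cytosolic form, was at 11.52, 11.45 and 11.68 against 11.32, 11.30 and 11.39. All labelled transgenic values were above the others, by 0.22 ± 0.08 on average (adjusted p = 0.242).

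Prdx3, the peroxiredoxin of the mitochondrial matrix that uses Txn2, was at 11.88, 11.93 and 11.95 against 12.19, 12.12 and 12.16. The labelled transgenic values were all lower and close together, with an SD of 0.04 in each group. The difference was -0.24 ± 0.06 (interval -0.39 to -0.09, adjusted p = 0.138), and it was -0.28 with the station in the fit. Txnrd2, the mitochondrial thioredoxin reductase, was at 0.03 ± 0.10 with its other probe sets at -0.07, 0.19 and 0.27.

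Prdx2, the cytosolic peroxiredoxin abundant in red cells, differed by -0.09 ± 0.10, and Prdx4, that of the endoplasmic reticulum, by 0.04 ± 0.12. Txnrd1, the cytosolic thioredoxin reductase, differed by 0.01 ± 0.08, with a sign that turned under quantile normalization. Srxn1, which repairs overoxidised peroxiredoxins, differed by 0.09 ± 0.17. These 4 overlapped between groups, with adjusted p from 0.653 to 0.969. Against non-transgenic array 1 alone, as the station leaves it, the arm's median was -0.27 in place of 0.01, with Prdx2 at -0.28, Prdx4 at -0.22 and Srxn1 at -0.27.

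Txnip, the inhibitor of thioredoxin that glucose and stress induce, varied most in this arm. It was at 12.06, 12.10 and 12.34 on labelled transgenic arrays and at 12.46, 13.52 and 12.34 on the others. Non-transgenic array 2 was far above the remaining 5 arrays, and its second probe set was also highest there, at 12.89. The difference was -0.61 ± 0.31 (interval -1.37 to 0.15, adjusted p = 0.358), or -0.23 without that array and -0.29 with the station in the fit. Over all alternatives it ran from -0.82 to -0.23. Its unadjusted p was under 0.05 only with Xist in the fit and without non-transgenic array 3.

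Of 24 other thioredoxin, selenoprotein and repair genes, all tested, 14 were higher and 10 lower. An unadjusted p under 0.05 was found for 3 higher and 2 lower, or 12.5% and 8.33%, beside 10.6% and 7.88% of all genes. None passed over all genes. Msrb2, a mitochondrial methionine sulfoxide reductase, was at -0.40 ± 0.09 (adjusted p = 0.105). Selenom, a selenoprotein of the endoplasmic reticulum, was at 0.36 ± 0.10 (adjusted p = 0.143).

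No gene of the Nrf2 pathway or metallothionein arm passed over all genes. Its median of 0.07 became 0.28 with the station in the fit. Nfe2l2 itself was at 10.26, 10.36 and 10.31 on labelled transgenic arrays and at 10.05, 10.29 and 10.40 on the others. The non-transgenic values lay on both sides of the labelled transgenic ones, with a difference of 0.06 ± 0.10 (interval -0.19 to 0.31, adjusted p = 0.798), or 0.26 with the station in the fit (adjusted p = 0.264). Keap1, its repressor, was at 0.07 ± 0.08 with an interval from -0.11 to 0.26.

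Nqo1, a quinone reductase and a widely used readout of Nrf2 activity, had the largest difference of all members. It was at 9.60, 9.52 and 9.61 on labelled transgenic arrays and at 9.03, 8.87 and 8.57 on the others. Every labelled transgenic value was at least 0.48 above every non-transgenic one. The difference was 0.76 ± 0.13 (interval 0.45 to 1.06, adjusted p = 0.0593). It was 0.54 with the station in the fit (adjusted p = 0.164) and 0.74 with Xist in it, with adjusted p-values between 0.0425 and 0.196 over the alternatives. A single probe set measured it.

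Hmox1, the inducible haem oxygenase, was dim, at 4.95, 5.25 and 4.76 against 4.69, 4.78 and 4.75. Labelled transgenic arrays 1 and 2 were above the other group and array 3 was within it. The difference was 0.24 ± 0.13 (interval -0.07 to 0.56, adjusted p = 0.374).

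Over a list of 10 members that are textbook Nrf2 targets, 9 were tested, 7 were higher and 2 lower, and the median was 0.09 beside 0.01 for all genes. Those at an unadjusted p under 0.05 were Nqo1, which was higher (11.1%, beside 10.6% of all genes), and Gsta4, which was lower (11.1%, beside 7.88%). Gclc, Gclm, Gsr, Txnrd1, Srxn1, Gstm1 and Hmox1 were not among them.

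Nrf2 binds the antioxidant response element, whose core is written TGACNNNGC. The 250 bases before the start site were searched for it on both strands in RefSeq promoters of build GRCm38.p6, which held 29 of the 36 members tested. It was found in 5 of these 29, or 17.2%, beside 14.2% of 8926 genes tested here and 11.5% of all 27025 genes in the table. A gene was counted if the window of any of its start sites matched, and Txnrd1 also had windows without a match. Each match is given with up to 20 bases on either side, on the gene's strand, so that it can be set beside the gene's value. Capitals mark the core, which stands as its reverse complement in Gclm, Sod1 and Txnrd1, and the Mt2 match begins with TGACTCA, the site of AP-1 factors. The positions are chr3:122245403-122245451 (Gclm, plus strand), chr8:94172519-94172567 (Mt2, plus), chr2:75704875-75704913 (Nfe2l2, minus), chr16:90220686-90220734 (Sod1, plus) and chr10:82859094-82859142 (Txnrd1, plus).
Gclm: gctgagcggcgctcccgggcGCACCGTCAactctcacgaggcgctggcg
Mt2: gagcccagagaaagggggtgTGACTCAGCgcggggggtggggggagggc
Nfe2l2: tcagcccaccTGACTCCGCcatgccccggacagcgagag
Sod1: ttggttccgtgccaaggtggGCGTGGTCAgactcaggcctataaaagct
Txnrd1: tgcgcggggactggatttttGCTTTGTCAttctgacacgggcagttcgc

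The differences of these 5 genes ran from -0.21 (Mt2) to 0.16 (Gclm), and Nqo1 had no match within its 250 bases. Sequence farther from the start site was not searched, so whether Nqo1 has an element there was not tested. Of the textbook targets tested, Hmox1, Gclc, Gsr and Gsta4 had no promoter entry. The 100 bases before the start site of Nqo1, chr8:107403206-107403305 on the minus strand, are given because it is the member with the largest difference. They lie within the window searched.
Nqo1: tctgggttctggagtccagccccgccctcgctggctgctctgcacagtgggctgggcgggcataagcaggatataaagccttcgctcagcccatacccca

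A list of 38 other genes of the Nrf2 pathway, haem and iron storage and NADPH supply gave 30 tested, 19 higher and 11 lower, with a median of 0.07. At an unadjusted p under 0.05 there were 5 higher and 2 lower, or 16.7% and 6.67%, beside 10.6% and 7.88% of all genes. None passed over all genes. Abcc1, an exporter of glutathione conjugates, was at 9.41 ± 0.13 against 8.80 ± 0.11, a difference of 0.61 ± 0.10 (adjusted p = 0.0593). Ephx1, the microsomal epoxide hydrolase, was at 0.49 ± 0.15 (adjusted p = 0.173). Nnt, the mitochondrial transhydrogenase that supplies NADPH to the glutathione and thioredoxin systems and that some C57BL/6 substrains lack, was at 13.65 ± 0.08 against 13.69 ± 0.06, an interval of the difference from -0.22 to 0.14.

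The metallothioneins, small cysteine-rich metal-binding proteins, varied more between arrays of a group than between the groups. Mt1 was at 13.37, 12.43 and 12.30 on labelled transgenic arrays and at 12.58, 13.70 and 13.77 on the others. Mt2 was at 10.88, 9.49 and 8.95 against 8.72, 10.39 and 10.86. In both genes labelled transgenic array 1 and non-transgenic arrays 2 and 3 were high and the other 3 arrays low, so that 1 array of each group sat with the opposite group. The second Mt1 probe set, dimmer, had the same 3 arrays at the top, at 6.01, 5.48 and 5.94.

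The difference was -0.65 ± 0.41 for Mt1 (interval -1.65 to 0.35, adjusted p = 0.454) and -0.21 ± 0.69 for Mt2 (interval -1.90 to 1.47, adjusted p = 0.906). Without non-transgenic array 1 they were at -1.03 and -0.85, and against that array alone, as the station leaves it, at 0.12 and 1.06. The metal response element that regulates them has a core of TGCACNC or TGCGCNC. It was found on either strand in 9 of the 29 members with a promoter entry, Mt1 and Mt2 included. That was 31.0%, beside 34.5% of genes tested and 23.8% of all genes in the table. The Mt1 probe set is of a type (suffix _s_at) whose probes can match several transcripts. Of the 3 arrays where both genes were high, labelled transgenic array 1 and non-transgenic array 2 also had high Xist, and non-transgenic array 3 had low Xist. Labelled transgenic array 3 had high Xist and low values of both genes.

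Where a gene had several tested probe sets, which 21 members had, their differences shared a sign in 15 and not in 6 (Ncf1, Sod1, Prdx4, Txnrd1, Txnrd2 and Keap1). These 6 differed by -0.05 to 0.07 at the probe set that represents them. In the fit over all probe sets 0 of the 69 member probe sets passed, and 17 had an unadjusted p under 0.05. Of these 8 were higher, or 11.6% beside 9.41% of all 22518 probe sets kept, and 9 lower, or 13.0% beside 6.98%.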

How the data were processed

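The deposited values were log2 expression values, 1 per probe set and array, made by the authors with GCRMA, a background correction and normalization method, per the submitters' processing notes. The version is not given in the sources used here, and no further normalization was applied. The instrument's text records, also deposited, gave the fluidics station and the chip lot field, per the file headers. The 64 control probe sets were left out. Of 45037 others 34945 had 1 gene in the platform annotation, 932 several and 9160 none listed, and 34741 matched a RefSeq gene ID of GRCm38.p6 with 0 symbols changed.

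Probe sets above the median mean level (22518) were kept, which left 11016 genes, each by its brightest probe set. These genes were compared between groups by the moderated 2-sided test of limma 3.58.1 (R 4.3.3), without covariates, with Benjamini-Hochberg adjustment over all of them and a threshold of 0.05. A second fit used all kept probe sets. Differences are given ± the moderated SE. The script was tested on simulated data.

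All 6 values were given for 11 members chosen by name and for up to 3 per arm with the largest difference among those without overlap at an unadjusted p under 0.05. From each list of other pathway genes up to 2 were named by size at that p, and Nnt, while Cybc1, Tyrobp, Adgre1, Nppa and Myl4 were picked after their values were seen. The members and lists were chosen with earlier results of these data known. Of the marker lists, endothelial, lymphocyte, smooth muscle, erythroid, adipocyte, atrial and lung genes were also measured, and 9 endothelial genes had a median difference of 0.04, 4 lymphocyte genes 0.01, 8 smooth muscle and pericyte genes -0.22, 2 erythroid genes -0.11 and 1 adipocyte gene -0.25, while 0 of 4 lung genes lay above the filter.

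Same-numbered arrays did not deviate together, with correlations of their deviations from the group means of -0.09, -0.16 and 0.01, so the numbers were not taken to pair the arrays. Alternatives covered the filter, normalization, variance model, array weights, replicate number, station, Xist, mean of a gene's probe sets and each array left out.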

Additional observations from a re-analysis of the deposited data

How the results depend on the processing

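Over the 18 alternatives and 36 members, 589 of 645 differences kept their sign and their side of the threshold, 50 changed sign and 6 came to pass. With a filter at log2 5, 2 of 33 members passed (Gpx3 and Nqo1), beside 185 of 9039 genes. Trended variance gave 3 of 36 members (Gpx3, Gpx8 and Nqo1), beside 180 of 11016 genes. Array weights gave 1 of 36 (Nqo1), beside 139 of 11016 genes. In the 15 other alternatives in limma 0 members passed. The 11 members at an unadjusted p under 0.05 ran from 5 to 11 with single arrays left out, beside 12.7% to 17.8% of all genes. The 62 genes called over all genes became 21 with no filter, 185 with the filter at log2 5, 39 with median centring (33 higher and 6 lower, in place of 46 and 16), 180 with trended variance, 139 with array weights, 20 with the station as a block, 0 within station 2 (1907 at an unadjusted p under 0.05), 10 with Xist as a term, and 0 to 80 with single arrays left out. That count was 0 without labelled transgenic array 2 (1648 unadjusted), labelled transgenic array 3 (1399) or non-transgenic array 2 (1856), 8 without non-transgenic array 1 and 3 without non-transgenic array 3. With the replicate number as a block 0 genes passed (1820 unadjusted), and 0 probe sets. The 49 probe sets called became 15 with no filter, 143 with the filter at log2 5, 108 with trended variance, 2 with the station as a block, 0 within station 2 or with Xist as a term, and 0 to 75 with single arrays left out.

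The fit with the station block and the fit within station 2 gave the same differences, those of 3 labelled transgenic arrays against non-transgenic array 1 alone, in which the median difference was 0.013 over members, -0.272 for the thioredoxin arm and 0.275 for the last arm. Leaving out single arrays gave 0.031 to 0.091 over members and 0.002 to 0.184 for the oxidase arm. Signs also turned with the station in Cybb (-0.107), Cyba (-0.046), Ncf1 (0.037), Ncf4 (-0.020), Rac1 (-0.011), Sod1 (-0.013), Gclc (-0.180), Gstm2 (-0.033), Prdx4 (-0.217), Txnrd2 (-0.102), Srxn1 (-0.272), Mt1 (0.119) and Mt2 (1.056). They turned in Gclc (-0.004) and Txnrd1 (-0.007) with quantile normalization, in Txnrd1 (-0.036) with Xist, and in Ncf1 (0.021) and Sod1 (-0.060) as the mean of probe sets. With single arrays left out the ranges that crossed 0 were -0.255 to 0.226 for Cybb, -0.099 to 0.121 for Gclc, -0.006 to 0.254 for Gpx7, -0.849 to 0.222 for Mt2, -0.099 to 0.029 for Ncf1, -0.036 to 0.140 for Nfe2l2, -0.043 to 0.168 for Prdx4, -0.034 to 0.058 for Sod1, -0.035 to 0.273 for Srxn1, -0.030 to 0.067 for Txnrd1 and -0.048 to 0.098 for Txnrd2. The cause of these changes was not tested. The number of arrays limits the precision, and dim probe sets such as those of Nox4, Ncf4 and Hmox1 may understate a difference.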
